A study of Mus musculus with 6 samples.

Results

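The comparison set knockout clone 1, a line of mouse neural progenitor cells (NPC) derived from 1 cell clone and labelled knockout, against its parental NPC line, labelled wild type. The genes described were those with a mean of at least 1 CPM (a gene's counts scaled to the total of its library) over 2 clone 1 and 2 parental libraries, and 14828 of 42365 genes in the count table met this. CPM values printed below use library totals over the genes tested, rescaled between libraries as in the statistical fit. No drug, time or passage is given for any of the 4 libraries, all from total RNA of cells in culture. Knockout here means the label, and no value below checks it. A second labelled knockout clone with 2 libraries entered the same statistical fit and is used here to show where clone 1 stood apart. The parental libraries are titled as clones too, without saying whether this means clonal lines. Because both clone 1 libraries come from 1 clone, an effect of the genotype and a trait of this clone cannot be told apart. Nothing in the labels says that libraries of a group were separate cultures, so p-values measure the spread between libraries, which may be technical.

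Neural progenitors divide, keep the capacity to form neurons, astrocytes and oligodendrocytes, and are held in that state by growth factors of the FGF and EGF families acting through the ERK kinases.

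The 6 libraries held 58871554 to 69530032 counts. The 2 libraries of a group correlated at 0.992 to 0.993 on log2 CPM. By a chi-square of their counts per gene, over its degrees of freedom, the clone 1 libraries agreed less well. It was 22.1 in clone 1, 3.48 in parental cells and 4.92 in clone 2. Clone 1 libraries differed from each other by over 1.5-fold in 37 of 11007 genes of at least 5 CPM, and parental libraries in 13, with mitochondrial rRNA and histone genes among those of clone 1. Mitochondrial genes took 5.37% to 6.86% of counts, with 6.86% and 5.57% in the clone 1 libraries. Progenitor markers were present in both groups: Sox2, a stem cell factor, stood at 363 and 353 CPM in the parental libraries and 304 and 313 in clone 1, Pax6 at 49.5 and 54.5 against 63.9 and 57.9, and Nes, the progenitor intermediate filament, at 82.0 and 77.3 against 162 and 179. Prom1, also a progenitor marker, was under 1 CPM in all 4. Several defining markers of other cell types were near 0 in both groups: microglial Aif1 and Tmem119, endothelial Cdh5, pluripotency Pou5f1, and fibroblast Dcn and Lum had at most 10 counts in any of the 4 libraries. Other markers set for this check, such as Col1a1, Col3a1, Pecam1, Csf1r, Nanog, Epcam and Cdh1, are not given singly. Other genes of these lists were expressed: summed levels in the 4 libraries were 168 to 185 CPM for 16 fibroblast genes, 39.5 to 43.4 for 14 microglial genes, and 145 and 150.1 in parental against 190.1 and 200.5 in clone 1 libraries for 13 endothelial and mural genes, mainly Notch3. Over 13 epithelial and choroid plexus genes the sums were 18.6 and 19.4 CPM in parental against 5.83 and 5.29 in clone 1 libraries. Over 14 pluripotency and germ cell genes the sums were 35.4 and 35.3 against 68.8 and 74.7 CPM, and over 12 neural crest and Schwann cell genes 1079 and 1079.6 against 226 and 216. The last sums were mainly 1 gene, Ednrb, at 947 and 939 against 153 and 149 CPM. The parental culture also held high astrocyte markers (summed over 20 genes, 16622 and 16520 CPM against 6065 and 6210 in clone 1), with 16 of 20 called lower. All 30 mitotic genes of a second list rose, in sum from 42.3 and 43.1 CPM to 2464 and 2398. The part of these shifts in the results below was not tested. In such bulk cultures, fewer cells of a type and less RNA per cell cannot be told apart.

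Every gene was tested in edgeR's quasi-likelihood model of all 6 libraries, with Benjamini-Hochberg adjustment over 23400 genes. A gene is called higher or lower when its adjusted p is under 0.05. Values after ± are the standard error (SE) of a log2 fold change, and library values are given as pairs, replicate 1 first. Over all genes tested, 27.3% were called higher and 27.2% lower in clone 1. Among the 14828 genes of at least 1 CPM, 5500 (37.1%) were called higher and 4706 (31.7%) lower, so a list has to be read against these shares. The balance of higher and lower calls turned with scaling and filter: 5030 were higher and 5078 lower with upper quartile scaling, 4893 and 5316 with only genes of at least 1 CPM in the fit, and 5977 and 4320 with no filter. The change was below 0.5 on the log2 scale for 4311 of the called genes, and it reached 4-fold for 522 higher and 668 lower genes. The median log2 fold change over all these genes was 0.05. Clone 2 was called higher than clone 1 in 22.0% of them and lower in 29.0%.

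**Figure D1:**
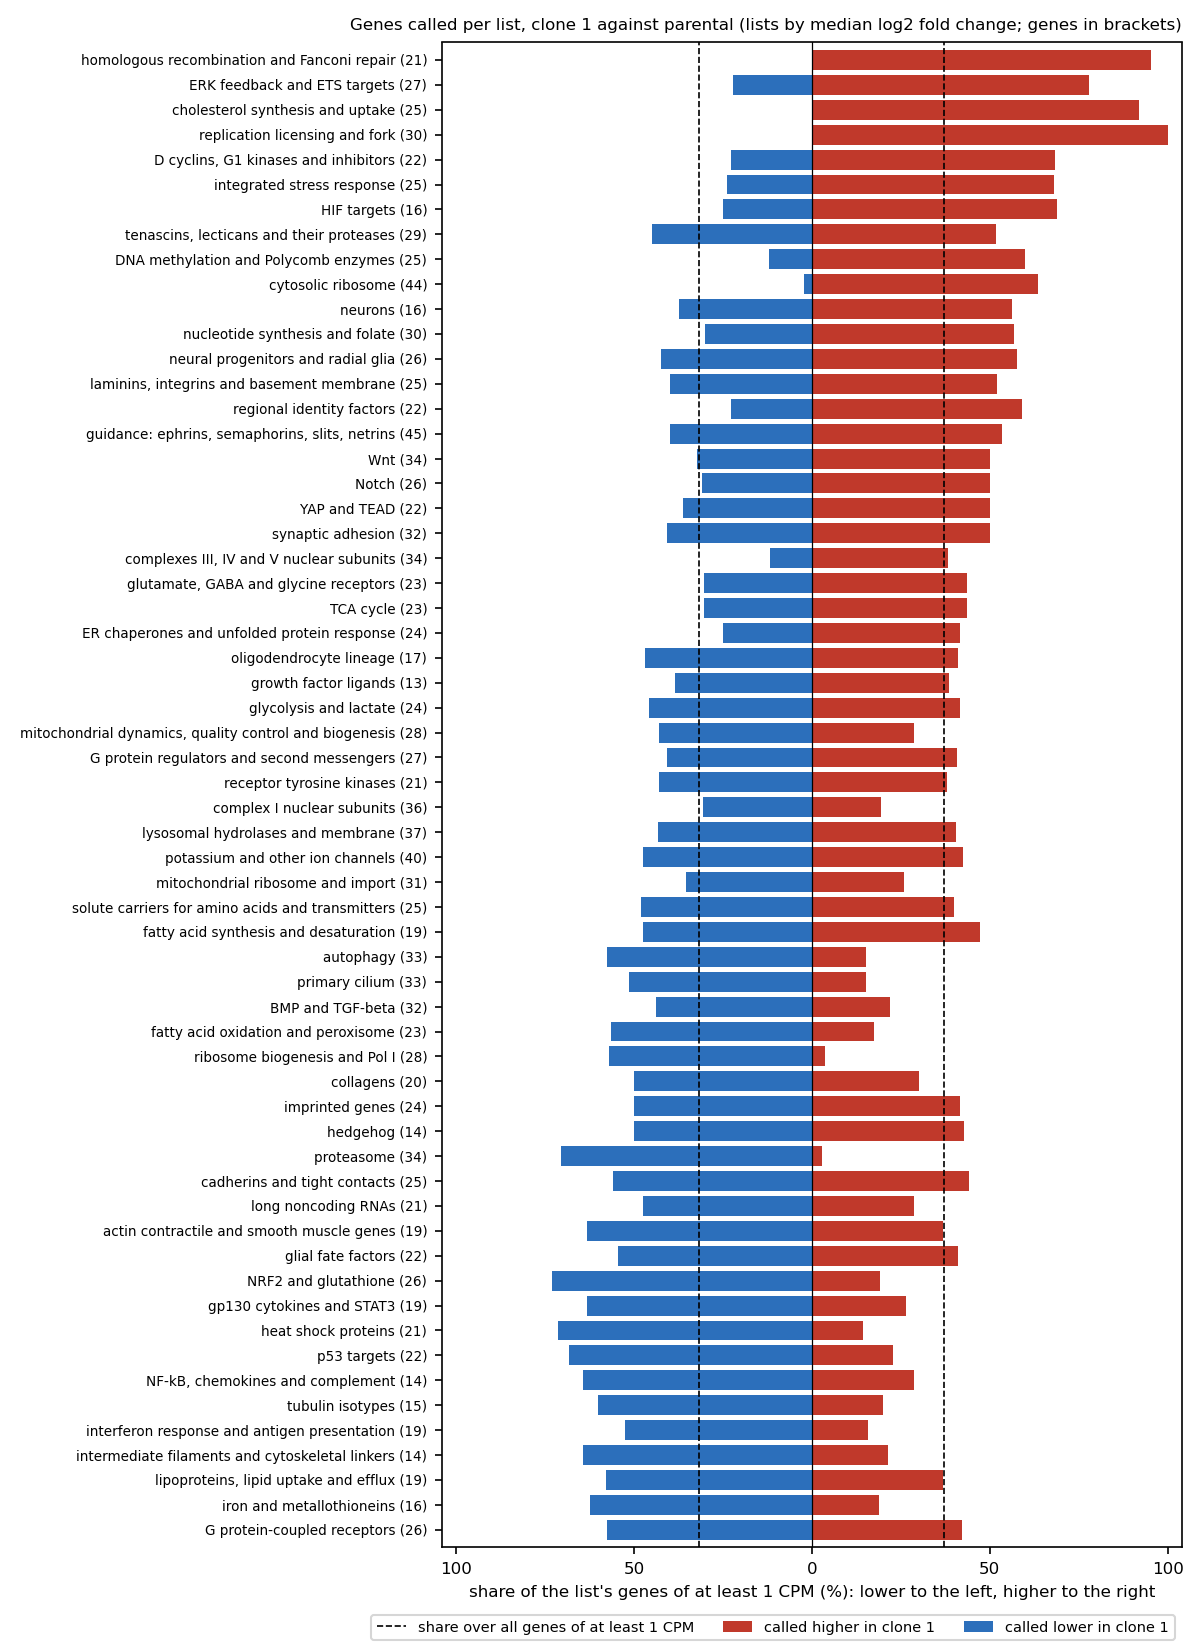
Share of each list's genes of at least 1 CPM called higher (to the right) or lower (to the left) in clone 1 than in parental cells, for lists with at least 12 such genes. Dashed lines mark the shares over all genes, 37.1% higher and 31.7% lower; DNA repair, replication and cholesterol lists lie far to the right, and proteasome, glutathione and heat shock lists extend to the left.

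The largest falls included stress, receptor and adaptor genes. Hspb8 and Bag3 encode a small heat shock protein and its partner, which together deliver misfolded proteins to autophagy. Hspb8 was at 112 and 111 CPM in parental libraries and 0.0610 and 0.0291 in clone 1, and Bag3 at 88.0 and 88.6 against 0.153 and 0.0583. Their log2 fold changes were -11.22 ± 0.16 and -9.70 ± 0.13 (adjusted p = 4.7e-18 and 1.9e-18). Met, the receptor of hepatocyte growth factor, went from 137 and 136 to 0.183 and 0.160 CPM (-9.62 ± 0.11), and Emp2, a membrane protein of the PMP22 family, from 352 and 350.1 to 0.625 and 0.393 (-9.43 ± 0.09). Groups did not overlap for any of these, as for 12394 of all 14828 genes. Osmr, the oncostatin M receptor, was at 20.3 and 19.7 against 0.0153 and 0.0874 CPM (-8.53 ± 0.23), and Adra1a, an alpha-1 adrenergic receptor, at 13.1 and 13.6 against 0.0153 and 0.0437 (-8.72 ± 0.28). Ripply1, Cldn34c1 and Lhpp had 0 to 2 counts in a clone 1 library, against 1854 and 1783, 802 and 691, and 1191 and 1112 counts in the parental ones. Afap1l2, an adaptor of Src kinase signalling, fell from 31.5 and 33.2 to 0.122 and 0.0729 CPM.

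In total, 17 protein-coding genes were at most 0.1 CPM in both clone 1 libraries and at least 5 CPM in both parental ones, and 0 genes showed the reverse. Plcd1, a phospholipase C, was 1 of them, at 20.2 and 19.5 against 0.0763 and 0.0874 CPM. Of these genes, 7 were also at most 0.1 CPM in both clone 2 libraries, and 1, Evc2, was at least 5 CPM there. Over the whole count table, parental libraries had a count in 37678 and 37419 genes, against 32686 and 32130 in clone 1. The part of this in the contrast of 17 genes against 0 was not tested.

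The largest rises outside the mitotic list included genes of secreted proteins. Sostdc1, an antagonist of BMP and Wnt ligands, went from 0.296 and 0.458 to 56.5 and 50.1 CPM (7.15 ± 0.13; adjusted p = 1.1e-16). Clone 2 had 5.95 and 6.31, and the difference between the clones was itself called (clone 2 minus clone 1 -3.12 ± 0.09, adjusted p = 2.5e-13). Hmcn1, a large matrix protein, was at 8.45 and 8.14 against 484 and 478 CPM (5.86 ± 0.05), and Igfbp3, a carrier of insulin-like growth factors, at 8.07 and 8.28 against 447 and 424 (5.73 ± 0.06). Neither did the groups overlap for these, again as for 12394 of all 14828 genes. Other genes among the largest rises were the spindle genes Ckap2l (6.46 ± 0.09), Knstrn (6.496 ± 0.08) and Kif2c (6.42 ± 0.13), the cytokinesis gene Gas2l3 (6.03 ± 0.10) and the helicase gene Pif1 (6.44 ± 0.17).

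Among abundant genes, changes ranged from small to large. Apoe, an apolipoprotein of astrocytes, fell from 2919 and 2724 to 254 and 319 CPM (-3.30 ± 0.13). Gm10800, a predicted gene on chromosome 2, fell from 1713 and 1681 to 34.4 and 27.5 CPM (-5.78 ± 0.12). The part of reads that map to several places, whose counting is not stated, was not tested for Gm10800. Olig1, a factor of the oligodendrocyte lineage, rose from 619 and 614 to 2995 and 3148 CPM (2.32 ± 0.05). Eef1a1, a translation elongation factor, rose from 4996 and 4938 to 8091 and 8535 CPM (0.74 ± 0.04). Serpine2, a protease inhibitor, rose from 925 and 936 to 2511 and 2421 CPM (1.41 ± 0.04). The mitochondrial mt-Co1 was at 19156 and 20679 against 23873 and 19376 CPM and was not called (adjusted p = 0.38), and the libraries of the 2 groups overlapped. The mitochondrial mt-Nd1 was at 3119 and 3378 against 5779 and 4396 CPM (0.65 ± 0.16, adjusted p = 0.032), a call lost without clone 2 replicate 1 (adjusted p = 0.065) or 2 (0.064), with no filter (0.077) and with limma-voom (0.058). Tuba1a, an alpha tubulin, fell from 3360.3 and 3426 to 809 and 753 CPM (-2.12 ± 0.04), Cpe, a prohormone-processing peptidase, from 1974 and 1941 to 435 and 471 (-2.11 ± 0.05), and Slc38a1, a glutamine transporter, from 2034 and 2019 to 630.4 and 611 (-1.71 ± 0.04).

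**Figure D2:**
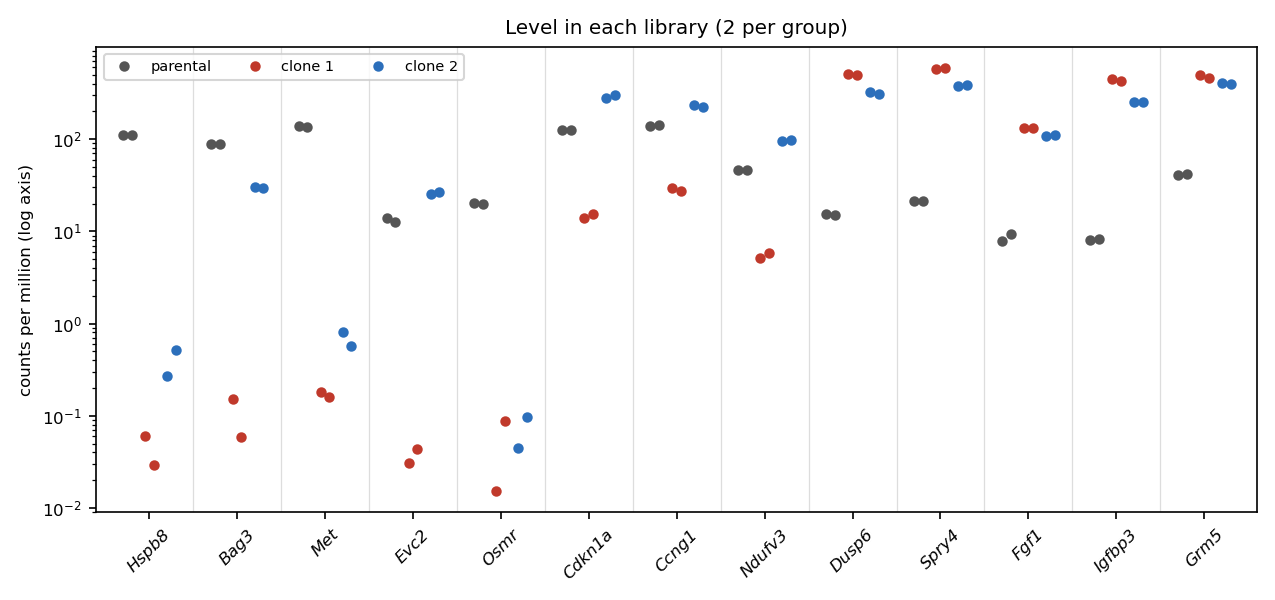
CPM (log axis) of 13 genes in each of the 6 libraries, coloured by group. For every gene shown, both clone 1 points lie apart from both parental points, as for 12394 of all 14828 genes. Bag3, Evc2, Cdkn1a, Ccng1 and Ndufv3 are low in clone 1 and far higher in clone 2.

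Genes that report on ERK activity were mostly higher. These comprise feedback inhibitors of the pathway (Spry, Spred and Dusp genes), ETS factors (Etv1, Etv4, Etv5) and immediate early genes. Of 27 genes, 21 were called higher and 6 lower, with a median log2 fold change of 1.82. Dusp6, the phosphatase that removes ERK phosphorylation, was at 15.2 and 14.997 CPM in parental libraries and 509 and 500.4 in clone 1 (5.06 ± 0.05; adjusted p = 1.1e-19), and Spry4 at 21.5 and 21.1 against 569.9 and 587 (4.76 ± 0.05). Etv5 went from 86.1 and 89.2 to 1003 and 1003 CPM (3.52 ± 0.05) and Etv4 from 16.1 and 16.0 to 230.0 and 231 (3.84 ± 0.05). The 4 libraries fell into 2 groups without overlap for each of these genes, as they did for 12394 of all 14828. Some AP-1 genes of the list moved the other way. Fosl2 fell from 128 and 132 to 42.6 and 43.2 CPM (-1.60 ± 0.05), Junb from 154 and 152 to 61.6 and 65.0 (-1.27 ± 0.05) and Fos from 821 and 830.0 to 377 and 385 (-1.12 ± 0.04). Clone 2 against parental cells had 19 of these 27 genes higher and 8 lower, with a median of 1.39. Over the list, 16 genes were called lower in clone 2 than in clone 1 and 5 higher. Egr3 rose from 14.7 and 14.96 to 151 and 142 CPM in clone 1 and was at 38.7 and 39.3 in clone 2 (clone 2 minus clone 1 -1.91 ± 0.05, adjusted p = 6.1e-14), and Fosb, at 27.9 and 26.6 CPM in parental libraries, was at 90.2 and 92.8 in clone 1 and 16.7 and 15.8 in clone 2 (-2.49 ± 0.06, adjusted p = 1.4e-14).

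Growth factors and their receptors did not move as a group. Of 21 receptor tyrosine kinases, 8 were called higher and 9 lower. Egfr, the receptor of EGF, rose from 519.9 and 523 to 927 and 872 CPM (0.79 ± 0.04) and Igf1r from 207 and 205 to 376 and 373 (0.86 ± 0.04). Beside Met, the stem cell factor receptor Kit fell from 74.4 and 75.7 to 24.5 and 24.7 CPM (-1.61 ± 0.06), and Ntrk2, which binds brain-derived neurotrophic factor, from 2793 and 2830.0 to 1091 and 1039 (-1.40 ± 0.04). Among 13 ligand genes, 5 were higher and 5 lower. Fgf1 rose from 7.89 and 9.35 to 133 and 131 CPM (3.94 ± 0.07; adjusted p = 2.9e-17), the largest ligand change, and pleiotrophin (Ptn) from 193 and 182 to 630.4 and 736 (1.86 ± 0.06).

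The gp130 cytokine pathway, by which interleukin-6 family cytokines act through JAK kinases and STAT3 and which is known for its part in astrocyte formation, was lower at several steps. Of 19 genes, 12 were called lower and 5 higher, with a median of -0.44. The shared receptor Il6st was at 512 and 513 CPM in parental libraries and 144 and 138 in clone 1 (-1.86 ± 0.04), and the kinase Jak1 at 177 and 167 against 85.1 and 84.1 (-1.02 ± 0.05). The feedback inhibitor Socs3 fell from 102 and 98.8 to 3.58 and 3.51 CPM (-4.82 ± 0.07; adjusted p = 4.6e-18) and Socs2 from 27.3 and 27.6 to 2.61 and 2.91 (-3.31 ± 0.10). The receptor of leukaemia inhibitory factor, Lifr, moved against its list, from 106 and 107 to 254 and 246 CPM (1.23 ± 0.04). Genes of complement and interferon responses were mostly lower: C4b, a complement component, went from 399 and 398 to 9.67 and 10.9 CPM (-5.28 ± 0.06), 9 of 14 NF-kB, chemokine and complement genes were called lower, and 10 of 19 interferon and antigen presentation genes were lower and 3 higher. Of the last, Tapbp, a loader of peptides onto MHC class I, fell from 85.4 and 83.6 to 25.6 and 25.9 CPM (-1.72 ± 0.05), whereas the MHC light chain B2m rose from 172 and 189.6 to 289 and 244 (0.56 ± 0.08).

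All 26 G protein-coupled receptors of at least 1 CPM were called, 15 lower and 11 higher, with a median of -1.17. Lpar1, a receptor of lysophosphatidic acid, fell from 29.0 and 29.4 to 0.305 and 0.306 CPM (-6.57 ± 0.16). Endothelin receptors moved apart: Ednrb fell from 947 and 939 to 153 and 149 CPM (-2.64 ± 0.04) and Ednra rose from 9.35 and 10.3 to 22.6 and 21.7 (1.17 ± 0.08). Both subunits of the GABA-B receptor were lower, Gabbr1 at 247 and 246 against 80.0 and 79.1 CPM (-1.63 ± 0.04) and Gabbr2 at 129 and 134 against 39.2 and 41.4 (-1.71 ± 0.05). The metabotropic glutamate receptor Grm5 rose from 40.5 and 41.6 to 490.2 and 454 CPM (3.52 ± 0.05; adjusted p = 4.6e-18). Downstream, Rgs4, which shortens G protein signals, went from 37.6 and 37.2 to 0.153 and 0.117 CPM (-8.10 ± 0.14), and Prkcb, a protein kinase C, rose from 19.03 and 19.7 to 131 and 129.7 (2.75 ± 0.05).

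**Figure D3:**
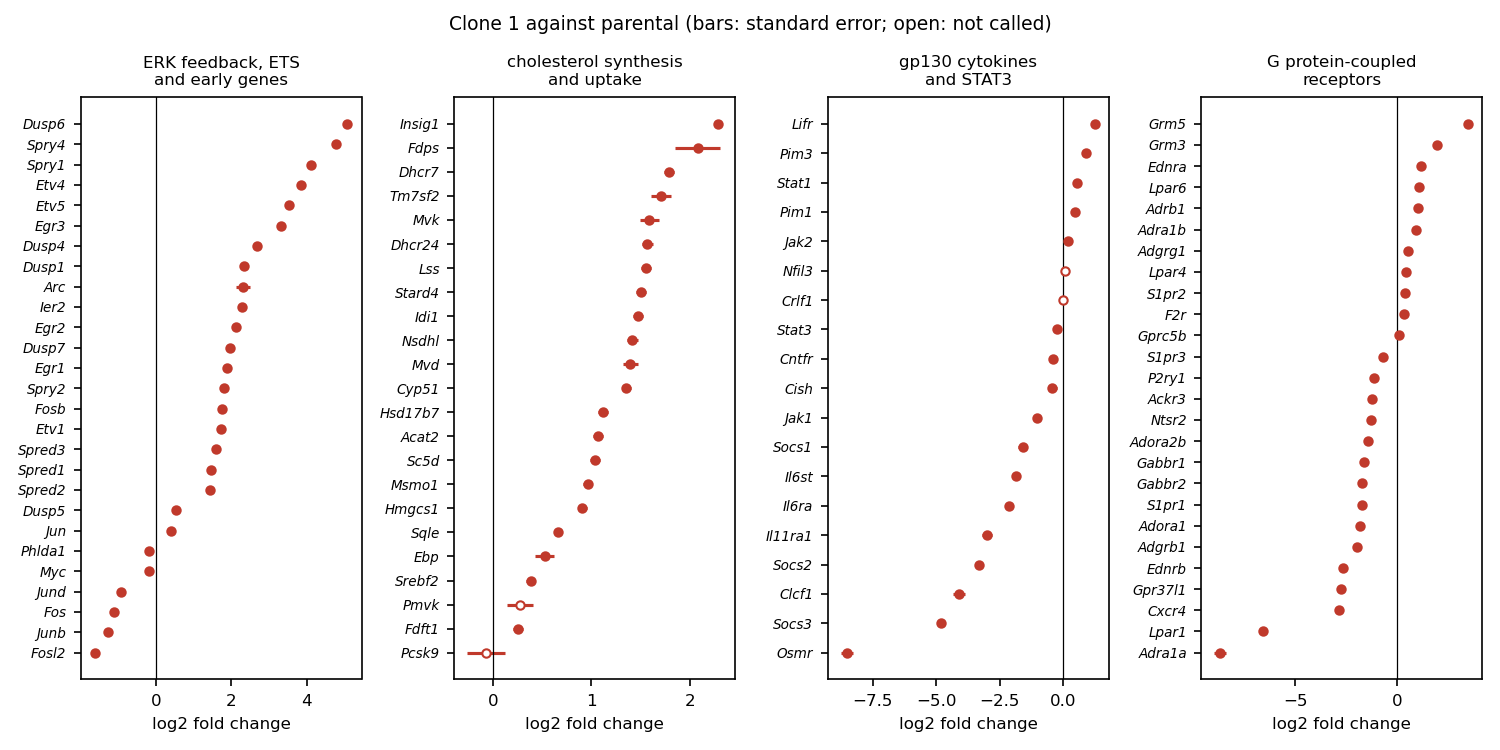
Log2 fold change of clone 1 against parental cells with its SE for genes of at least 1 CPM in 4 lists, with 2 cholesterol genes left out; open points were not called. ERK feedback genes run up to Dusp6 at 5.06 and cholesterol genes among those shown up to Insig1 at 2.29, while Osmr and Adra1a lie lowest in their lists.

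Developmental pathways gave mixed counts with large single changes. In the Wnt list 17 of 34 genes were called higher and 11 lower. Feedback inhibitors of Wnt were among the higher ones: Nkd1 went from 14.0 and 11.7 to 75.4 and 77.3 CPM (2.57 ± 0.07), Znrf3 from 41.1 and 40.1 to 147 and 141 (1.83 ± 0.05) and the secreted Wif1 from 3.87 and 3.80 to 45.1 and 41.8 (3.50 ± 0.09). Lgr5, an R-spondin receptor, rose from 23.3 and 25.1 to 123 and 112 CPM (2.28 ± 0.06), and the ligand Wnt7b fell from 187 and 186 to 56.0 and 61.4 (-1.67 ± 0.05). In the Notch list 13 of 26 were higher and 8 lower. The ligand Jag1 rose from 35.7 and 35.0 to 121 and 129 CPM (1.82 ± 0.05) and the target Hes1 from 20.1 and 20.2 to 67.7 and 64.7 (1.72 ± 0.05), while the ligand Dll3 fell from 42.4 and 42.3 to 13.9 and 14.1 (-1.60 ± 0.07). In the BMP and TGF-beta list 14 of 32 were lower and 7 higher. The ligands Tgfb2 and Bmp7 moved apart, Tgfb2 from 251 and 250.1 to 49.8 and 43.6 CPM (-2.42 ± 0.06) and Bmp7 from 3.99 and 3.51 to 44.3 and 44.2 (3.56 ± 0.08), and Id4, a target that blocks proneural factors, fell from 14.4 and 13.7 to 3.19 and 3.31 (-2.11 ± 0.11).

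Hedgehog genes held a wide contrast between the clones. Evc and Evc2 encode partners at the base of the primary cilium that pass the signal on from Smoothened. They are neighbours on mouse chromosome 5 (GRCm38, Evc at chr5:37289098-37336894 on the minus strand and Evc2 at chr5:37338499-37425055 on the plus strand). Parental cells had 13.9 and 12.6 CPM of Evc2, against 0.0305 and 0.0437 for clone 1 and 25.2 and 26.4 for clone 2. For Evc these levels were 17.4 and 16.5 CPM in parental cells, 1.43 and 1.22 for clone 1 and 42.8 and 44.8 for clone 2. Both were thus low in clone 1 and highest in clone 2. Their log2 fold changes in clone 1 were -8.40 ± 0.20 and -3.68 ± 0.10, and clone 2 minus clone 1 was 9.36 ± 0.18 and 5.04 ± 0.10 (adjusted p = 1.5e-15 and 1e-15). Crmp1, which overlaps the end of Evc on the other strand and was chosen after its values were seen, had 21.7 and 22.0 CPM in parental cells, 9.47 and 9.65 for clone 1 and 10.99 and 10.8 for clone 2. Whether the counting used strand is not known here, so reads in the overlap of Evc and Crmp1 may belong to either. The activator Gli2 fell from 64.5 and 63.2 to 9.97 and 10.1 CPM (-2.67 ± 0.07), and the target and inhibitor Ptch1 rose from 168 and 165 to 346 and 344 (1.05 ± 0.04), as did Gas1, a ligand co-receptor, from 44.96 and 45.6 to 307 and 296 (2.74 ± 0.05). In all, 6 of 14 hedgehog genes were higher and 7 lower, and 17 of 33 cilium genes were lower and 5 higher.

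Targets of p53, the factor that halts the cycle after DNA damage, were mostly lower in clone 1. Of 22 genes, 15 were called lower and 5 higher, with a median of -0.56. Cdkn1a, the p21 inhibitor of cyclin-dependent kinases, had 125 and 125 CPM in parental cells, against 14.0 and 15.4 for clone 1 and 277 and 300.4 for clone 2. Ccng1, a cyclin induced by p53, had 139.7 and 141 CPM in parental cells, 29.2 and 27.6 for clone 1 and 232 and 223 for clone 2. Eda2r, a death receptor, had 44.5 and 42.0 CPM in parental cells, 10.4 and 9.41 for clone 1 and 109 and 104 for clone 2. Each of these was lowest in clone 1 and highest in clone 2. Log2 fold changes in clone 1 were -3.09 ± 0.06, -2.31 ± 0.05 and -2.13 ± 0.06, and clone 2 minus clone 1 was 4.29 ± 0.06, 3.002 ± 0.05 and 3.43 ± 0.06 (adjusted p = 4.4e-17, 1.9e-16 and 8.9e-16). Over the list, 15 genes were called higher in clone 2 than in clone 1 and 2 lower. The apoptosis genes Bax and Bbc3 were lower in clone 1 (-0.93 ± 0.11 and -1.55 ± 0.15), as was the death receptor Fas, at 10.6 and 11.5 against 0.381 and 0.612 CPM (-4.46 ± 0.17). Plk2, a kinase of centriole duplication, rose from 31.8 and 32.0 to 162 and 176 CPM (2.41 ± 0.05), and Trp53i11 from 25.6 and 24.8 to 106 and 110.2 (2.10 ± 0.05). Trp53 itself and Mdm2, its ubiquitin ligase and target, changed by small amounts. Trp53 was at 118 and 118 against 110.4 and 107 CPM (-0.12 ± 0.05, adjusted p = 0.04) and Mdm2 at 56.3 and 56.5 against 64.6 and 60.8 (0.15 ± 0.05, adjusted p = 0.015), and both calls were lost without parental replicate 1 (adjusted p = 0.12 and 0.13) and without parental replicate 2 (0.13 and 0.13), and that of Trp53 also without clone 1 replicate 2 (0.13) and without either clone 2 library (both 0.12). Trp53cor1, a long noncoding RNA gene beside Cdkn1a, had 4.77 and 4.53 CPM in parental cells, against 1.24 and 1.35 for clone 1 and 25.2 and 25.4 for clone 2. Trp53, Mdm2 and Trp53cor1 were picked after their values were seen.

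**Figure D4:**
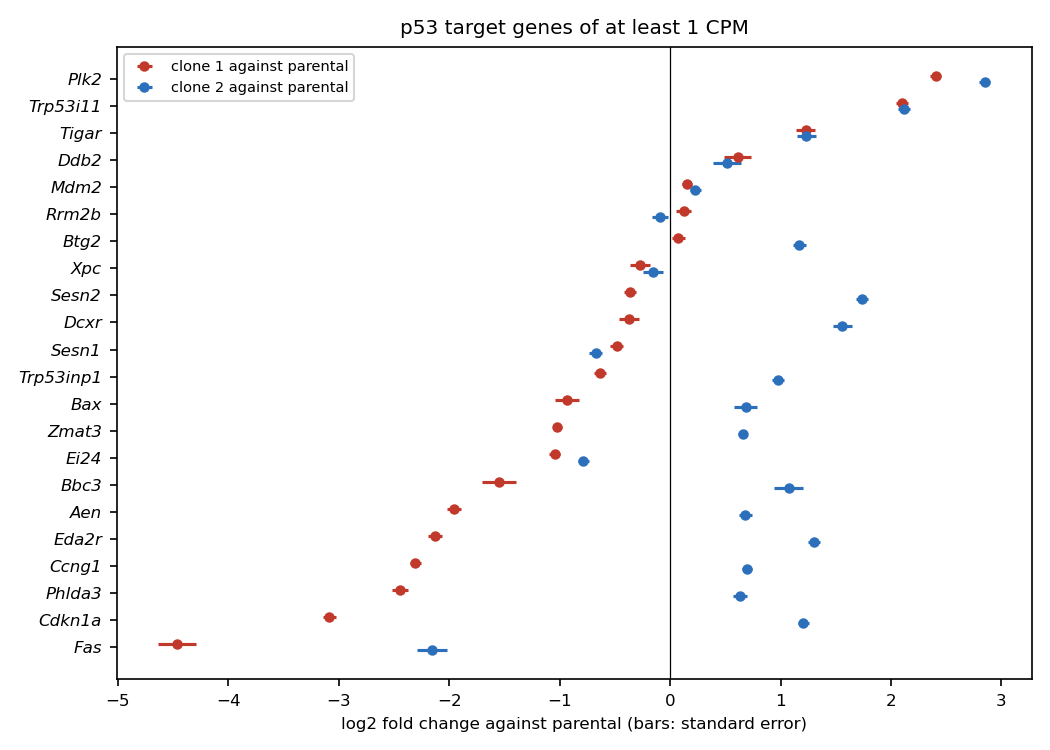
Log2 fold change against parental cells, with its SE, of p53 target genes of at least 1 CPM in clone 1 and in clone 2; both contrasts share the parental libraries. Cdkn1a, Phlda3, Ccng1, Eda2r, Aen, Bbc3, Zmat3, Bax and Trp53inp1 lie left of 0 in clone 1 and right of 0 in clone 2.

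Stress responses other than p53 differed in direction. In the integrated stress response, in which ATF4 raises amino acid synthesis and transport, 17 of 25 genes were higher and 6 lower. Psat1, of serine synthesis, rose from 55.6 and 55.0 to 158 and 166 CPM (1.55 ± 0.05) and Asns, asparagine synthetase, from 21.2 and 21.8 to 48.9 and 45.2 (1.13 ± 0.05). Some transcription and transport genes of the list fell: Atf3 from 13.1 and 13.4 to 1.66 and 2.20 CPM (-2.77 ± 0.13), Cebpb from 26.8 and 26.5 to 5.44 and 6.45 (-2.16 ± 0.10) and the cystine carrier Slc7a11 from 184 and 179 to 25.7 and 25.7 (-2.82 ± 0.05). Rises were smaller than in clone 2 for most, with 20 genes called higher in clone 2 than in clone 1 and 4 lower. Chaperones of the endoplasmic reticulum stayed close to parental levels, with 10 of 24 higher, 6 lower and changes from -0.90 to 0.79.

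Heat shock protein genes were lower in 15 of 21 and higher in 3. Below Hspb8 and Bag3, the small heat shock gene Cryab fell from 61.3 and 65.5 to 11.5 and 10.8 CPM (-2.50 ± 0.07) and Hsp90aa1 from 389 and 377 to 242 and 233 (-0.69 ± 0.04). The co-chaperones Dnajb1 and Dnajb5 rose, from 38.4 and 40.9 to 62.9 and 65.4 CPM (0.70 ± 0.05) and from 15.7 and 15.6 to 32.8 and 34.0 (1.09 ± 0.06). Bag3 kept 30.1 and 29.2 CPM in clone 2, a difference between the clones of 8.13 ± 0.14 (adjusted p = 2.8e-16), while Hspb8 had 0.272 and 0.519 there. The heat shock factor HSF1 binds inverted GAA units, searched here as GAANNTTC. This was found in 7 of 16 heat shock gene promoters (250 bases before to 50 after the RefSeq start, GRCm38.p6), and in 5.49% of the promoters of 9943 genes matched by symbol. Where RefSeq lists several starts for a gene, the first was used. The element lay before the start in 4 of the 16, of which Hspe1 was not called (0.03 ± 0.05). The stretches of the 3 called genes are shown, 5′ to 3′ on the gene's strand with the element in capitals.
Hspa1a, chr17:34972227-34972286, minus strand: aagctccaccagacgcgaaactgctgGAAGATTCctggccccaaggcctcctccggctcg
Hspa1b, chr17:34959309-34959368, minus strand: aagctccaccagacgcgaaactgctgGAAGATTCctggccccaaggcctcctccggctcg
Dnaja1, chr4:40722318-40722377, plus strand: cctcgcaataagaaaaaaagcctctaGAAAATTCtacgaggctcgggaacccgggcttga
Hspa1a and Hspa1b, near-identical copies of the inducible HSP70 gene whose reads the counting may have split, both fell. Hspa1a went from 6.999 and 7.70 to 2.41 and 3.61 CPM (-1.28 ± 0.16) and Hspa1b from 10.1 and 9.53 to 5.09 and 6.08 (-0.81 ± 0.11). Dnaja1, an HSP70 co-chaperone, fell from 178 and 172 to 144 and 152 CPM (-0.24 ± 0.04).

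Redox and metal genes were mostly lower. Of 26 NRF2 and glutathione genes, 19 were called lower and 5 higher. Gpx4, which reduces lipid peroxides, fell from 360.2 and 359 to 102 and 114 CPM (-1.74 ± 0.05), Prdx6 from 517 and 536 to 143 and 124 (-1.98 ± 0.06) and the factor NRF2 itself (Nfe2l2) from 131 and 137 to 85.7 and 75.2 (-0.74 ± 0.06). Sod3, the extracellular superoxide dismutase, rose from 1.59 and 1.76 to 27.2 and 24.0 CPM (3.93 ± 0.10). In the list of iron genes and metallothioneins, 10 of 16 were lower and 3 higher. Steap3, a ferrireductase of endosomes, went from 44.1 and 44.9 to 0.991 and 1.22 CPM (-5.32 ± 0.10) and Fth1, the ferritin heavy chain that stores iron, from 1446 and 1447 to 435 and 466 (-1.68 ± 0.04). The zinc-binding metallothionein Mt3 fell from 113 and 117 to 10.8 and 12.8 CPM (-3.28 ± 0.07), and ceruloplasmin (Cp), a ferroxidase, rose from 44.6 and 44.96 to 177 and 161 (1.91 ± 0.05). The difference from clone 2 was called for Mt3, at 28.5 and 30.2 CPM there (1.31 ± 0.07, adjusted p = 6.5e-10), and for Cp, at 73.6 and 70.9 (-1.22 ± 0.05, adjusted p = 2.8e-11).

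Cholesterol genes rose nearly throughout: 23 of 25 were called higher and 0 lower, with a median of 1.36. These genes are driven by SREBP2, which acts with the CCAAT-binding factor NF-Y. Insig1, which restrains SREBP processing, was at 56.3 and 56.9 CPM in parental libraries and 275 and 278 in clone 1 (2.29 ± 0.04). Both clone 1 libraries lay above both parental ones, and groups were apart for 12394 of all 14828 genes. Dhcr7, of the last step of synthesis, rose from 36.4 and 39.9 to 134 and 129 CPM (1.79 ± 0.05). A CCAAT box (CCAAT on either strand) was present in 15 of 17 cholesterol gene promoters matched, against 39.2% of all 9943, and the sterol element searched as TCACNCCAC in 1 of 17, against 1.05%. The promoter of Hmgcs1, which makes the precursor of mevalonate, is shown for its sterol element, and those of 4 further genes for their CCAAT box; capitals mark the element.
Hmgcs1, chr13:119690188-119690247, plus strand: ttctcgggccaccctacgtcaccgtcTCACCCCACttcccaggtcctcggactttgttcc
Insig1, chr5:28071170-28071229, plus strand: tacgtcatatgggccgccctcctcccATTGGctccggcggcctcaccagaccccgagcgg
Idi1, chr13:8885535-8885594, plus strand: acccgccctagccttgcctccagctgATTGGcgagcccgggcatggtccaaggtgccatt
Cyp51, chr5:4104698-4104757, minus strand: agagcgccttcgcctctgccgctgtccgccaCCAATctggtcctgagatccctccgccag
Lss, chr10:76531517-76531576, plus strand: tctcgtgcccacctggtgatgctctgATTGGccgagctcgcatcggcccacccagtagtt
Hmgcs1 rose from 194 and 182 to 345 and 361 CPM (0.91 ± 0.05), Idi1 from 34.8 and 37.6 to 99.97 and 102 (1.48 ± 0.05), Cyp51 from 67.4 and 62.9 to 165 and 169 (1.36 ± 0.05) and Lss from 21.8 and 20.6 to 61.0 and 63.8 (1.56 ± 0.06).

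Other lipid genes moved both ways. Fatty acid synthesis had 9 genes higher and 9 lower of 19. The desaturase Scd1 rose from 51.8 and 52.3 to 264 and 252 CPM (2.31 ± 0.05), while Srebf1, the gene of the fatty acid regulator SREBP1, fell from 261 and 264 to 44.2 and 46.0 (-2.54 ± 0.05) and Gpam, which starts glycerolipid synthesis, from 579.6 and 564 to 137 and 127 (-2.11 ± 0.05). Among lipoprotein and lipid transport genes 11 of 19 were lower and 7 higher. The apolipoprotein gene Clu fell from 142 and 143 to 5.54 and 5.22 CPM (-4.73 ± 0.06), lipoprotein lipase (Lpl) from 27.3 and 27.5 to 0.183 and 0.0583 (-7.82 ± 0.21) and the cholesterol exporter Abca1 from 1164 and 1159 to 318 and 307 (-1.90 ± 0.04). Scarb1, a receptor of high-density lipoprotein, rose from 17.8 and 19.3 to 103 and 103 CPM (2.48 ± 0.06). In fatty acid oxidation 13 of 23 genes were lower, among them the carnitine palmitoyltransferase gene Cpt1c, at 81.3 and 80.5 against 18.1 and 19.01 CPM (-2.12 ± 0.06), while the regulators Ppargc1a and Ppara rose (1.31 ± 0.05 and 1.07 ± 0.13).

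Glycolysis did not shift as a whole in clone 1, with 10 of 24 genes higher and 11 lower. Isoforms of a step moved apart: hexokinase Hk2 rose from 7.22 and 5.62 to 18.4 and 19.96 CPM (1.58 ± 0.10) as Hk1 fell from 194 and 192 to 77.8 and 86.1 (-1.24 ± 0.05), and enolase Eno1 rose from 517 and 511 to 1079 and 1076 (1.07 ± 0.04) as Eno2 fell from 8.64 and 8.41 to 0.732 and 0.903 (-3.38 ± 0.20). Clone 2 was called higher than clone 1 in 21 of these genes and lower in 2. Among HIF targets 11 of 16 were higher and 4 lower. Vegfa rose from 91.6 and 89.6 to 182 and 192 CPM (1.04 ± 0.05), and the HIF-2 alpha gene Epas1 fell from 58.9 and 57.3 to 8.95 and 10.2 (-2.60 ± 0.07) while Hif1a rose from 220.4 and 224 to 559.8 and 495 (1.25 ± 0.05).

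Among nuclear genes of complex I, which passes electrons from NADH into the respiratory chain, 1 accessory subunit changed by far more than the others. Of 36 complex I genes, 7 were higher and 11 lower, and of 34 genes of complexes III to V, 13 were higher and 4 lower. These counts turned on single libraries: without clone 1 replicate 2, 17 complex I genes and 11 of complexes III to V were lower, and without clone 1 replicate 1, 13 complex I genes were higher and 7 lower. Without parental replicate 2, 4 complex I genes and 7 of complexes III to V were higher. Ndufv3, an accessory subunit of complex I, had 46.6 and 45.9 CPM in parental cells, against 5.17 and 5.87 for clone 1 and 95.3 and 98.1 for clone 2. It was low in clone 1 and above parental level in clone 2, with a change of -3.06 ± 0.07 in clone 1 (adjusted p = 5.2e-16) and a difference between the clones of 4.13 ± 0.07 (adjusted p = 1.9e-16). The next largest fall among complex I genes was that of Ndufb7, at -0.58 ± 0.13, and Ndufc1 rose by 0.43 ± 0.05. Over complex I, 28 genes were called higher in clone 2 than in clone 1 and 1 lower. In mitochondrial dynamics and quality control 12 of 28 were lower (7 without parental replicate 1) and 8 higher. Pink1, a kinase that marks damaged mitochondria, fell from 259 and 259 to 105 and 104 CPM (-1.31 ± 0.04) and the fusion gene Mfn2 from 134 and 127 to 74.2 and 76.5 (-0.79 ± 0.05), and the mitophagy receptor Bnip3l rose from 102 and 97.6 to 175 and 166 (0.77 ± 0.05).

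Genes of the proteasome and autophagy were mostly lower, and lysosomal genes moved both ways. Of 34 proteasome genes, 24 were called lower and 1 higher, with a median of -0.26, and Psmd1, a scaffold of the regulatory particle, fell from 239 and 236 to 129 and 132 CPM (-0.86 ± 0.04). In autophagy 19 of 33 genes were lower and 5 higher (2 without either parental library). Sqstm1, the cargo receptor p62, fell from 485 and 481 to 231 and 241 CPM (-1.03 ± 0.04) and Tfeb, the factor of lysosomal genes, from 30.7 and 32.0 to 11.6 and 13.3 (-1.33 ± 0.08). Lysosomal genes were split, 15 higher and 16 lower of 37, with the protease Ctsb down from 918 and 927 to 330.1 and 317 CPM (-1.51 ± 0.04) and Naglu, of heparan sulfate breakdown, up from 12.7 and 13.2 to 43.2 and 42.6 (1.73 ± 0.06). Cytosolic ribosomal protein genes were higher in 28 of 44 and lower in 1 (4 without clone 1 replicate 2), with a median of 0.35, while ribosome assembly genes were lower in 16 of 28 and higher in 1, with a median of -0.19.

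Genes of growth control and DNA synthesis were mostly higher. Of the D cyclins, which open the cell cycle, Ccnd1 and Ccnd2 were higher, Ccnd1 at 45.4 and 43.4 CPM in parental and 282 and 295 in clone 1 libraries (2.70 ± 0.05) and Ccnd2 at 37.1 and 35.6 against 279 and 279 (2.94 ± 0.04), together with their kinase Cdk6 at 4.24 and 4.60 against 59.3 and 54.2 (3.68 ± 0.08). Ccnd3 fell from 34.4 and 33.8 to 25.8 and 25.2 CPM (-0.42 ± 0.06). In this list of D cyclins, kinases and inhibitors 15 of 22 were higher and 5 lower. Inhibitors of these kinases moved apart: Cdkn2a rose from 9.82 and 9.96 to 34.2 and 34.2 CPM (1.79 ± 0.07) and Cdkn2b fell from 7.90 and 8.86 to 1.81 and 1.91 (-2.17 ± 0.13). All 30 replication genes were called higher, with a median of 1.27, among them the helicase subunit Mcm5 (3.15 ± 0.08) and the polymerase gene Pole (3.20 ± 0.08). Of 21 repair genes 20 were higher and 0 lower, with a median of 2.66. Fancd2, which is monoubiquitinated at crosslinks, rose from 0.904 and 0.916 to 19.08 and 20.8 CPM (4.45 ± 0.12) and Brca1 from 2.51 and 2.19 to 21.4 and 21.3 (3.18 ± 0.10). Chromatin enzymes tied to replication followed, Uhrf1, which brings DNMT1 to new DNA, from 5.57 and 5.48 to 59.3 and 61.5 CPM (3.45 ± 0.07), and Ezh2 from 39.8 and 38.9 to 85.4 and 84.7 (1.11 ± 0.05), whereas its paralog Ezh1 fell from 39.2 and 39.0 to 20.2 and 19.4 (-0.98 ± 0.06). For nucleotides, the ribonucleotide reductase gene Rrm2 rose from 3.48 and 4.09 to 31.3 and 32.6 CPM (3.08 ± 0.09), with 17 of 30 genes higher and 9 lower.

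Identity genes gave no uniform shift towards a lineage. Among progenitor genes 15 of 26 were higher and 11 lower: Fabp7, a lipid carrier of radial glia, rose from 168 and 161 to 631 and 572 CPM (1.87 ± 0.05) and Tnc, a matrix protein of stem cell niches, from 54.6 and 53.6 to 222 and 228 (2.06 ± 0.04), while Sox9 fell from 764 and 763 to 236 and 232 (-1.71 ± 0.04) and Sox1 from 60.5 and 60.4 to 3.25 and 3.45 (-4.17 ± 0.08). Of 17 oligodendrocyte lineage genes, 7 were higher and 8 lower. The factors Olig2 and Nkx2-2 rose, from 406 and 417 to 1761 and 1677 CPM (2.06 ± 0.04) and from 13.6 and 13.8 to 49.2 and 50.3 (1.86 ± 0.06), and Cspg4, the NG2 proteoglycan of precursors, from 188 and 184 to 419.9 and 452 (1.23 ± 0.04), whereas Gpr17 fell from 154 and 159.6 to 14.6 and 14.4 (-3.44 ± 0.05) and the myelin enzyme Cnp from 323 and 318 to 142 and 153 (-1.12 ± 0.05). Of neuronal genes 16 of 33 reached 1 CPM, of which 9 were higher and 6 lower. Syt1, a calcium sensor of synaptic vesicles, rose from 3.01 and 2.44 to 8.54 and 8.87 CPM (1.67 ± 0.14), and Insm1, a factor of newborn neurons, from 1.87 and 1.92 to 4.01 and 4.30 (1.13 ± 0.15). Dcx, of migrating neurons, fell from 66.6 and 66.9 to 10.5 and 10.3 CPM (-2.69 ± 0.06) and Gap43, of growing axons, from 76.9 and 75.1 to 5.57 and 5.27 (-3.81 ± 0.07). Regional factors reached 1 CPM in 22 of 41 cases, 13 higher and 5 lower. The midbrain factor En1 fell from 3.34 and 2.93 to 0.198 and 0.0874 CPM (-4.45 ± 0.30) and Lmx1b rose from 0.966 and 1.26 to 6.83 and 6.69 (2.61 ± 0.17). Of 35 Hox genes 7 reached 1 CPM, all of the HoxA cluster.

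Cytoskeletal genes were mostly lower. Of 15 tubulin genes 9 were lower and 3 higher. Beside Tuba1a, Tuba4a fell from 34.0 and 34.8 to 1.60 and 1.60 CPM (-4.42 ± 0.10); alpha tubulin genes are near-identical in sequence, so reads may be split between them. Plec, a linker of intermediate filaments, fell from 385 and 383 to 13.1 and 13.3 CPM (-4.86 ± 0.05), and the nuclear lamins moved apart, Lmna from 48.4 and 46.5 to 8.27 and 10.7 (-2.32 ± 0.10) and Lmnb1 from 39.8 and 36.5 to 123 and 140.3 (1.79 ± 0.06). Synpo2, an actin bundling protein, fell from 35.1 and 34.7 to 0.0763 and 0.219 CPM (-7.85 ± 0.19), and Srf, the factor of actin genes, rose from 27.8 and 29.0 to 63.2 and 63.5 (1.16 ± 0.06).

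The matrix changed in composition. Collagens were lower in 10 of 20 and higher in 6. The chains of type IV collagen, the net of basement membranes, moved apart: Col4a5 and Col4a6 fell, from 281 and 278 to 49.0 and 46.4 CPM (-2.55 ± 0.05) and from 12.8 and 12.9 to 0.0763 and 0.0291 (-7.89 ± 0.31), and Col4a1 rose from 4.65 and 4.48 to 23.7 and 22.8 (2.35 ± 0.09). Clone 2 had 6.31 and 6.34 CPM of Col4a1, less than clone 1 (-1.88 ± 0.08, adjusted p = 7.5e-11). The laminin chain Lamb1 rose from 18.1 and 16.9 to 96.0 and 103 CPM (2.51 ± 0.06) and fibronectin (Fn1) fell from 411 and 414 to 74.8 and 76.4 (-2.45 ± 0.04). Among integrins, Itga4 rose from 1.54 and 1.53 to 13.7 and 11.001 CPM (3.005 ± 0.16) and was at 0.0604 and 0.162 in clone 2, and Itga7 fell from 46.4 and 47.2 to 2.64 and 2.67 (-4.14 ± 0.09). Neurocan (Ncan), a lectican of the neural matrix, rose from 709 and 712 to 2407 and 2324 CPM (1.73 ± 0.04) and the protease inhibitor Timp4 from 23.8 and 24.1 to 258 and 270.4 (3.46 ± 0.05), whereas Timp1 fell from 9.59 and 9.87 to 0.549 and 0.408 (-4.34 ± 0.16) and the hyaluronan synthase Has2 from 10.2 and 9.91 to 0.442 and 0.393 (-4.59 ± 0.17).

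Adhesion and guidance genes showed large changes both ways. Guidance genes were higher in 24 and lower in 18 of 45. Netrin 1 (Ntn1) rose from 74.7 and 74.6 to 356 and 379.6 CPM (2.30 ± 0.05) and the ephrin receptor Epha5 from 30.4 and 30.9 to 135 and 133 (2.13 ± 0.05), while Ephb1 fell from 72.2 and 68.7 to 6.65 and 6.73 (-3.40 ± 0.08) and the semaphorin receptor Plxnd1 from 346 and 343 to 78.1 and 82.7 (-2.10 ± 0.05). Chl1, a cell adhesion molecule of the L1 family, rose from 34.0 and 32.6 to 418 and 387 CPM (3.597 ± 0.05), and contactin 1 (Cntn1) fell from 579 and 574 to 121 and 116 (-2.29 ± 0.04). Of the cadherins and related genes, Cdh4 rose from 23.6 and 25.7 to 148 and 144 CPM (2.57 ± 0.05) and Celsr1, of planar polarity, fell from 158 and 155 to 27.7 and 29.7 (-2.45 ± 0.05).

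Channel and receptor genes moved both ways, with 17 of 40 channel genes higher and 19 lower. Cacng5, an auxiliary subunit of AMPA receptors, fell from 106 and 109 to 1.27 and 1.22 CPM (-6.43 ± 0.09) and the potassium channel Kcna6 from 137 and 142 to 19.7 and 17.4 (-2.91 ± 0.06). Kcnd3, also a potassium channel, rose from 86.5 and 83.7 to 372 and 362 CPM (2.11 ± 0.04), and its auxiliary subunit Dpp6 from 7.86 and 6.84 to 61.8 and 59.6 (3.04 ± 0.08). Dpp6 was at 0.287 and 0.422 CPM in clone 2, below the parental libraries, so the clones lay on opposite sides (clone 2 minus clone 1 -7.42 ± 0.13, adjusted p = 2.8e-16). The kainate receptor Grik3 fell from 51.5 and 54.7 to 9.01 and 8.99 CPM (-2.56 ± 0.08) and the GABA-A subunit Gabra2 rose from 6.28 and 5.92 to 54.1 and 45.4 (3.03 ± 0.08). Of transporters, the glutamine carrier Slc38a3 rose from 151 and 155 to 626 and 622 CPM (2.03 ± 0.04) and the creatine carrier Slc6a8 fell from 183 and 180.4 to 56.9 and 58.1 (-1.66 ± 0.04).

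Imprinted genes, expressed from 1 parental allele, were higher in 10 and lower in 12 of 24. Igf2r, which clears IGF2, fell from 102 and 100.1 to 2.84 and 3.10 CPM (-5.09 ± 0.08), and Ndn from 12.5 and 13.5 to 0.107 and 0.0146 (-7.72 ± 0.25). Peg10, derived from a retrotransposon, rose from 193 and 199 to 1129 and 1008 (2.45 ± 0.05). Clone 2 kept 5.51 and 5.18 CPM of Ndn (6.44 ± 0.28, adjusted p = 4e-11). Of long noncoding RNAs, Neat1, the scaffold of paraspeckles, fell from 505 and 503 to 163 and 168 CPM (-1.61 ± 0.04), and Miat from 45.5 and 42.0 to 6.51 and 7.71 (-2.62 ± 0.09).

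Called genes were spread over all autosomes and the X. On chromosome 15, 275 of 550 genes were called lower and 123 higher, with a median log2 fold change of -0.24, and the median in clone 2 was -0.24 as well. All other autosomes and the X had medians between -0.04 (chromosome 11) and 0.17 (chromosome 13). Chromosome 11 had a median of 0.20 in clone 2, and the median of clone 2 minus clone 1 there was 0.22. On chromosome 13 a window of 5 Mb (chr13:20000001-25000000) held 77 genes with a median of 2.27. Of these, 52 were histone genes, 51 of them called higher, with log2 fold changes from 1.00 to 5.70. Most histone RNAs lack a poly(A) tail, and the labels name 2 kits without saying which made each library, so a part of the kit in these values was not tested. On chromosome 9, 16 genes in the window chr9:1-5000000 had a median of -5.26, and of -5.02 in clone 2. In clone 1, 10 of these 16 were called lower and 3 higher. How reads that map to several places were counted is not stated, and their part in this window was not tested. Histone gene copies are near-identical, so their reads may be split.

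**Figure D5:**
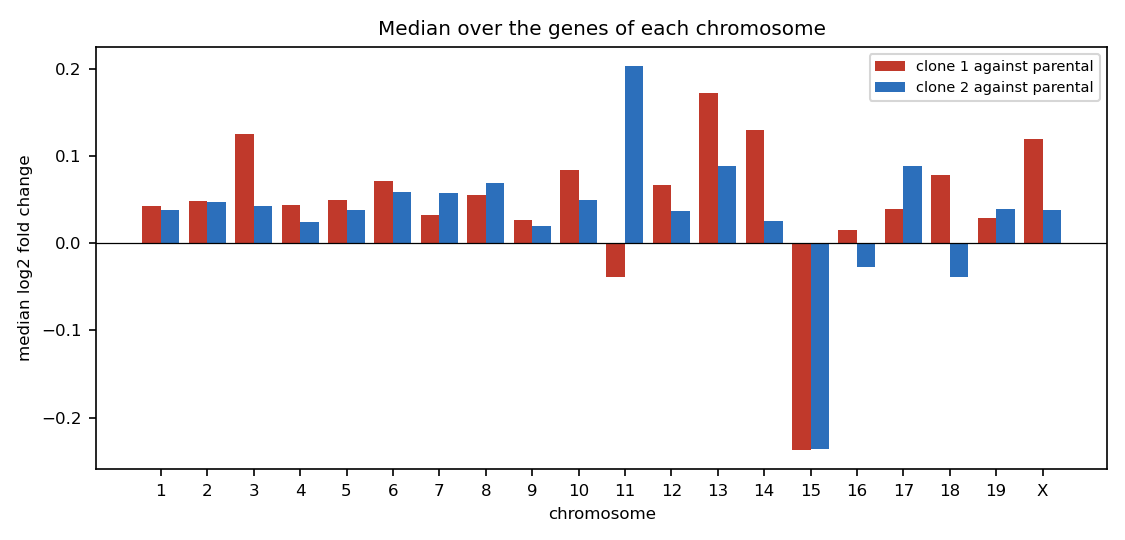
Median log2 fold change against parental cells over genes of at least 1 CPM on each autosome and the X, for clone 1 and clone 2, which share the parental libraries. Bars for chromosome 15 reach -0.24 in both clones, and chromosome 11 is at -0.04 in clone 1 and 0.20 in clone 2.

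Promoters of genes called with a change of at least 4-fold were searched for 12 motifs on both strands. The cell cycle homology region (CHR, TTTGAA), bound by the DREAM and MuvB complexes at cell cycle genes, was present in 29.9% of 335 promoters of higher genes, 10.1% of 464 of lower genes and 11.7% of all 9943. CCAAT was present in 51.6%, 32.1% and 39.2%. The AP-1 site (TGANTCA) was present in 5.67%, 7.97% and 4.39%, and the TEAD site (GGAATG) in 12.2%, 15.7% and 11.7%. Such matches describe letters in these windows and not binding. CHR was found in 17 of 23 mitotic gene promoters, 8 of them before the start. The stretches with the CHR before the start of 4 mitotic genes are shown with it in capitals. In the bases before the start, CHR was present in 67 of 335 promoters of higher and 42 of 464 of lower genes.
Mki67, chr7:135716462-135716521, minus strand: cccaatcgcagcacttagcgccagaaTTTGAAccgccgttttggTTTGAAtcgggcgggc
Top2a, chr11:99024335-99024394, minus strand: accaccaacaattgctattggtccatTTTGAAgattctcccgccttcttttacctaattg
Ube2c, chr2:164769869-164769928, plus strand: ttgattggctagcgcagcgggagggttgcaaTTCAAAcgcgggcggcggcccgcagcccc
Kif11, chr19:37376322-37376381, plus strand: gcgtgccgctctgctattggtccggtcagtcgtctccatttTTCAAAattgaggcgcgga
Mki67, a marker of cycling cells, was at 3.601 and 4.22 CPM in parental libraries and 516 and 492 in clone 1. Top2a, a topoisomerase, was at 4.82 and 5.11 against 252 and 255. Ube2c, a ubiquitin-conjugating enzyme that works with the anaphase-promoting complex, was at 0.265 and 0.204 against 93.3 and 88.0. Kif11, a spindle motor, was at 2.23 and 1.98 against 78.5 and 75.5.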

How the data were processed

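RNA was measured in 6 libraries of mouse neural progenitor cells: 2 parental, 2 of labelled knockout clone 1 and 2 of clone 2. The deposited table holds raw read counts per gene, made by the authors with STAR and featureCounts on GRCm38.p6 or mm10, per the submitters' processing notes. Versions, strand and multimapping settings are not stated there, nor is which of the 2 kits named in the labels made each library. From these counts CPM and log2 fold changes were computed. The minimum mean CPM that defines the genes described used plain library totals. Printed CPM values used the totals over the genes tested, scaled by TMM. edgeR 4.0.16 (R 4.3.3) fitted its robust quasi-likelihood model with TMM scaling to the 6 libraries in 3 groups (3 residual degrees of freedom), on 23400 genes passing filterByExpr with a minimum count of 10, and Benjamini-Hochberg adjusted over all of them. The script was tested on simulated counts. A contrast of the clones in that fit tested where clone 1 differed from clone 2, since both contrasts with parental cells share those libraries.

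Genes, lists and named members were chosen with earlier results of these data known. Lists (69, and 2 for context) are described by counts and medians beside the shares over all genes, with no test of a list. Genes were named by rule: the 12 largest rises and falls of called protein-coding genes outside the context lists, up to 4 members of a list by p and 2 against its direction, or a member whose role a sentence is about, the 10 and 10 largest changes of level, the 6 highest near-0 genes, and the 6 and 6 called in opposite directions in the clones. Promoters came from RefSeq (GRCm38.p6), matched by symbol for 9943 of 14828 genes. Alternatives were other scalings and filters, DESeq2 1.42.0, limma-voom (limma 3.58.1), the 4 libraries alone, a replicate block, a test against a minimum change and each library left out. Some genes, the targeted one among them, are not reported here.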

Additional observations from a re-analysis of the deposited data

Results flagged for a closer look

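For the following named genes the difference between clone 2 and clone 1 was called when tested in edgeR against a minimum of 2 on the log2 scale, that is 4-fold. All values are log2 of clone 2 minus clone 1. Genes higher in clone 2 were led by Evc2 (9.36) and Bag3 (8.13), followed by the imprinted Ndn (6.44) and the ciliary Evc (5.04). Cdkn1a (4.29), Trp53cor1 (4.28), Eda2r (3.43) and Ccng1 (3.002), all tied to p53, were also higher there. So were Ndufv3 (4.13), the cytokine gene Tgfb1 (3.71), Emp2 (3.41), the adenylate kinase gene Ak1 (3.38) and Gfap (2.61).

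Genes lower in clone 2 than in clone 1 were led by Dpp6 (-7.42) and Itga4 (-6.79). Bcl6b, a transcriptional repressor, was at 12.4 and 13.5 CPM in clone 1 and 0.211 and 0.114 in clone 2 (-6.28), and Nrk, a kinase gene of the germinal centre kinase family, at 21.2 and 20.4 against 0.377 and 0.276 (-5.98). Rasl12 (-4.57), Sostdc1 (-3.12), the glutaminyl cyclase gene Qpct (-2.94) and Gap43 (-2.44 ± 0.11) followed.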

How the results depend on the processing

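Testing against a change of at least 1 on the log2 scale left 2244 called genes, 1074 higher and 1170 lower, against 10206, 5500 and 4706, since this asks for a larger change. Under the other alternatives the total lay between 8043, with only genes of at least 5 CPM in the fit and thus fewer genes tested, and 10464. DESeq2 called 9367 genes and the fit on 4 libraries alone 9853. Leaving out each library in turn gave 8724 to 10464 called genes, 4580 to 5708 higher and 4144 to 4756 lower. A lone library left in a group is assumed to vary like the others. Same-numbered libraries did not deviate together (r of -0.0075 for parental and clone 1), so the numbers are not taken as pairs; with a replicate block 10248 genes were called, 5512 higher and 4736 lower. Of 5742 values of named genes over 16 alternatives, 5576 kept direction and call, 165 lost the call, 1 gained it and 0 reversed. Of 2272 list counts, 193 moved by over 1.5 times, and 14 list medians changed sign. With only the bases before the start searched, CHR was in 67 of 335 promoters of higher genes, against 100 with the bases after it included. Precision is limited by 2 libraries in each group, and folds of genes with 0 to 3 counts in a library by depth.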
